A study of Mus musculus with 16 samples.

Results

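The 45 genes described here encode the enzymes that make, use and recycle glutathione, the superoxide dismutases and catalase, the peroxiredoxins, the thioredoxins and the NRF2 regulators. They were chosen as a list of gene names by function, with earlier results of these data known, and all 45 were found among the 49066 gene symbols into which the transcripts were summed. By role they comprised 5 genes of glutathione synthesis and recycling, 13 soluble and 3 membrane glutathione S-transferases, 5 glutathione peroxidases, 4 superoxide dismutases and catalase, 7 peroxiredoxins with sulfiredoxin, 4 thioredoxins with their reductases, and 4 genes of the NRF2 and KEAP1 group. Their abundance was measured by RNA sequencing of brown adipose tissue (BAT) in 4 groups of 4 mice each, 2 genotypes in each sex. KO mice (GDF15 BKO) were homozygous for floxed *Gdf15* and carried Cre under the *Ucp1* promoter (Tg(Ucp1-cre)1Evdr), so that the gene was targeted in thermogenic adipocytes while the other cells of BAT kept it. WT mice were littermates with the same floxed alleles and no Cre, so the deletion and the presence of Cre cannot be told apart. All mice were of C57BL6/J background, had been fed HFD for 12 weeks and were 18 weeks old. The study describes single housing at thermoneutrality for metabolic measurements late in the diet, without naming the mice sequenced. The comparisons ask how the transcript levels of these genes differed between genotypes in each sex, between the genotype effects of the sexes, and between males and females.

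Glutathione is a tripeptide thiol that cells make from glutamate, cysteine and glycine and that serves as the reducing agent for glutathione peroxidases, which remove peroxides, and as the conjugating agent for glutathione S-transferases, which attach it to electrophiles such as the aldehydes formed from oxidized lipids. Peroxiredoxins remove peroxides by a parallel route that thioredoxins and thioredoxin reductases recharge, and both routes finally draw their electrons from NADPH. Many of these genes are controlled by the transcription factor NRF2, which KEAP1 holds at low levels until electrophiles or oxidants modify it. Brown adipocytes are rich in mitochondria, the main cellular site of superoxide formation, and are known for the uncoupling protein UCP1.

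Values are TPM, in which reads are divided by transcript length and scaled to a fixed sum per library. Because TPM do not retain read numbers, sequencing depth is unknown, and the error of a value is shown only by the spread between the 4 mice of a group. *Gdf15* itself was near the limit of measurement. The targeted gene was at 0.368, 0.690, 1.55 and 3.81 TPM in male WT mice and at 0.0915, 0.0801, 0.255 and 0.272 TPM in male KO mice. These groups did not overlap, and the exact permutation p (two-sided) was 0.0286, the lowest possible with 4 against 4. Female WT mice had 0.0622, 0.311, 0.170 and 0.290 TPM, and *Gdf15* was listed at 0 in 3 female KO mice and at 0.0794 TPM in the other (exact permutation p 0.0571, two-sided). The 10 listed brown adipocyte markers were all expressed, 34.5 to 59.8% of the TPM of a library came from the mitochondrial genome, and there were 0 identical pairs of libraries. Female WT 4 stood apart in that 16.5% of its TPM lay in a single transcript without a matched gene, which lowers the share left to every other gene in that library. Skeletal muscle markers summed to between 2.16 and 4872 TPM in single libraries, with wide ranges in every group. Library names carried the prefixes 5, 8b, 9 and 10, whose meaning is not given. Male WT mice had the prefixes 5 and 9, male KO mice 9 and 10, female WT mice 8b and 10, and female KO mice all 4 of them, so WT males and WT females shared no prefix.

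To show the sequences next to which these genes are transcribed, the promoters of 38 of the 45 genes were read from RefSeq (build GRCm38.p6), each as 250 bases before and 50 bases after the annotated start. The antioxidant response element is the DNA motif bound by NRF2 with its small MAF partners. Its core TGACNNNGC, which shares its first letters with the AP-1 motif, was searched on both strands. It was present in any window of 9 of the 38 genes (23.7%), beside 14% of the 27025 genes in the table, a description that was not tested. The 9 genes were *Gclm*, *Gsta3*, *Gstm5*, *Mgst1*, *Nfe2l2*, *Prdx1*, *Sod1*, *Srxn1* and *Txnrd1*. The promoters of 3 genes on which the results below turn are printed on the strand of the gene. *Gsta3* is shown because it was the member past the adjusted threshold between genotypes, *Srxn1* because it was among the genes that differed between the sexes, and *Gpx3* because its genotype difference had opposite signs in the sexes. Capitals mark the core, which begins 121 bases before the start of *Gsta3* and 28 bases after that of *Srxn1*, where it lies on the opposite strand. No core is in the *Gpx3* window, which says nothing about the rest of the gene.
*Gsta3*, chr1:21240335-21240634, plus strand: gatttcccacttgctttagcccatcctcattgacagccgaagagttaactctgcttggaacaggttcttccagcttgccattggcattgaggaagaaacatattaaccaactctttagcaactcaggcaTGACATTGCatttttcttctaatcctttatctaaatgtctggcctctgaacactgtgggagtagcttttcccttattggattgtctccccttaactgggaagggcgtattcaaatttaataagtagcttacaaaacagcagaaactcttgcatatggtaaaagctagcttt
*Srxn1*, chr2:152105274-152105573, plus strand: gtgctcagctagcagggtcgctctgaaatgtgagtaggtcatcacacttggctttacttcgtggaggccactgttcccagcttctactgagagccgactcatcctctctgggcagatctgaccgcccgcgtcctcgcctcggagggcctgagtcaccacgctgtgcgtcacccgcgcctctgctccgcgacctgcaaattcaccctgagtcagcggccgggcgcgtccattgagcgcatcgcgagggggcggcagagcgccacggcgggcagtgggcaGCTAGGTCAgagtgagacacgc
*Gpx3*, chr11:54902604-54902903, plus strand: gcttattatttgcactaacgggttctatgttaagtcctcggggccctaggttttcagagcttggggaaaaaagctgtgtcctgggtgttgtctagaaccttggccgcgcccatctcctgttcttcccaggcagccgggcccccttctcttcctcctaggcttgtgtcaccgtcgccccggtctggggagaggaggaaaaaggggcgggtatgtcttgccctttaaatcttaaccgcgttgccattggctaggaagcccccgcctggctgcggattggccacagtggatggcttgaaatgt

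Antioxidant enzymes were among the well expressed genes of BAT, and glutathione peroxidases led them. *Gpx4*, which removes lipid hydroperoxides from membranes, had the highest mean level of the 45 genes at 1271 TPM and ranged from 864 to 1618 TPM over the 16 libraries. *Gpx3*, the secreted glutathione peroxidase, averaged 921 TPM, and *Mgst1*, a membrane glutathione S-transferase and peroxidase, 484 TPM. They were followed by the cytosolic superoxide dismutase *Sod1* at 472 TPM, by *Gpx1* at 404 TPM, by the mitochondrial *Sod2* at 401 TPM and by *Prdx5* at 396 TPM. Neighbours in this order from *Mgst1* to *Prdx5* overlapped over the libraries, with *Mgst1* between 313 and 672 TPM and *Prdx5* between 271 and 502 TPM. The 45 genes together took 4945 to 8032 TPM per library, which was 0.755 to 1.48% of the TPM outside the mitochondrial genome.

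The lowest levels were those of *Slc7a11*, *Nqo1* and *Gstt3*. *Slc7a11*, the cystine carrier that supplies glutathione synthesis, averaged 0.119 TPM and was listed at 0 in 1 male WT mouse. *Nqo1*, a quinone reductase and classical NRF2 target, averaged 0.752 TPM, and *Gstt3* 3.02 TPM. The enzymes of glutathione synthesis and recycling were low beside the most abundant of those that use it, though some users such as *Gstt3* were lower still. Their means were 4.64 TPM for *Gclc*, the catalytic subunit of the rate-limiting ligase, 15 TPM for its modifier *Gclm*, 23.1 TPM for *Gss* and 6.03 TPM for *Gsr*. Of the soluble transferases *Gstp1*, *Gstz1* and *Gstm1* were the highest at 147, 140 and 136 TPM, and *Gsta3* was the lowest but for *Gstt3* at 5.18 TPM. *Gstm1*, *Gstm2*, *Gstm4* and *Gstm5* lie together on chromosome 3, and *Gstt1*, *Gstt2* and *Gstt3* on chromosome 10, so reads of these related genes may have been divided between them. The closest relatives of *Gsta3*, *Gsta1* and *Gsta2*, were at 0.221 TPM or less in every library.

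**Figure D1:**
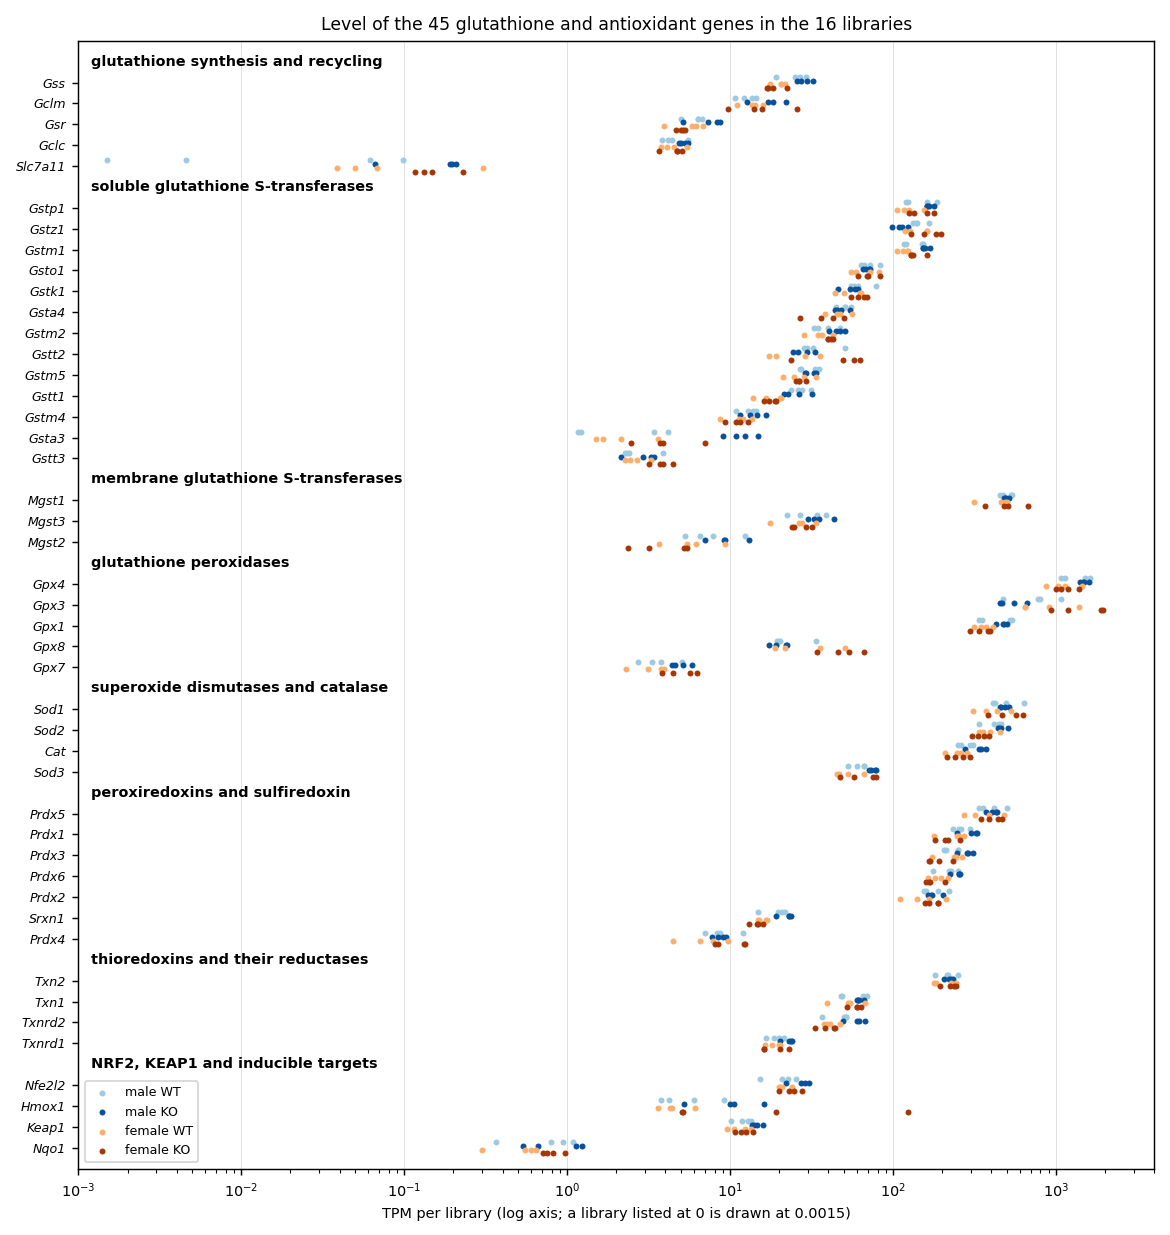
TPM of each of the 45 genes (rows, by role) in the 16 libraries, on a log axis, with light points for WT and dark points for KO, blue for males and orange to brown for females. Levels span from *Slc7a11* at a mean of 0.119 TPM to *Gpx4* at 1271 TPM. *Gsta3* in male KO mice and *Hmox1* in 1 female KO mouse lie away from the other points of their rows.

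Several levels rest on transcripts that are not annotated as coding. Transcripts annotated as protein coding made up 7.37% of the mean TPM of *Sod2*, 11.2% of that of *Prdx6*, 12.2% for *Slc7a11*, 41.1% for *Gsto1*, 41.8% for *Gstt2*, 54.7% for *Prdx2* and 66.9% for *Gstp1*. For *Slc7a11* a transcript with a retained intron led with 62.6% of the gene's TPM, and the coding share ran from 0 to 100% over the libraries. For *Sod2* the leading transcript was a processed transcript with 72.0% of the gene's TPM. For *Gsta3*, *Gpx3* and *Gpx7* the leading transcripts were protein coding.

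In males the largest difference between genotypes among the 43 genes tested was that of *Gsta3*, the alpha-class transferase with steroid isomerase activity that also conjugates lipid aldehydes. *Gsta3* was at 3.42, 1.16, 1.21 and 4.14 TPM in male WT mice and at 9.01, 14.8, 12.3 and 10.9 TPM in male KO mice. Every male KO mouse was above every male WT mouse, with means of 2.48 ± 1.53 and 11.8 ± 2.46 TPM (SD, n = 4), a log2 difference of 2.17 (SE 0.35). Here and below, log2 differences are on the scale of log2(TPM + 0.5), which understates the change of genes with low TPM. The unadjusted p by limma was 0.000177 and the Benjamini-Hochberg adjusted p over all genes was 0.123, which did not pass the threshold of 0.05. In a fit of all 16 libraries, which shares the spread of all groups, the adjusted p was 0.0298, and with protein-coding transcripts only it was 0.0499. Within the library prefix 9 the male difference was 2.21, from 3 KO and 2 WT mice.

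None of the 43 genes that reached a mean of 1 TPM passed the adjusted threshold in males by limma, where 0.00821% of all 12177 genes tested did, a single gene. With an unadjusted p under 0.05, 8 of the 43 were higher in KO males (18.6%, against 17.7% of all genes) and 1 was lower (2.33%, against 1.07%). These shares lie near the background, as does the median log2 difference of the 43 genes, 0.19 against 0.16 for all genes. Since most genes were higher in KO males on the TPM scale, the split was repeated after scaling by median-of-ratios factors, and it then was 1 higher and 7 lower. Over all 12149 genes tested after that scaling, 1031 were higher and 864 lower at an unadjusted p under 0.05. The groups of males did not overlap for 3 genes that were higher (*Gsta3*, *Sod3* and *Keap1*; 9.54% of all genes) and for 1 that was lower (*Gstz1*; 0.673% of all genes). After median-of-ratios scaling the same 3 were higher without overlap and 4 were lower (*Gsta4*, *Gstz1*, *Gsto1* and *Mgst1*). The share of all genes without overlap was not counted after that scaling. The number of genes at an unadjusted p under 0.05 rested on single mice, being 3 without male KO 2, 3 without male KO 3, 4 without male KO 4, 3 without male WT 1, and 14 without male KO 1 or without male WT 4.

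By role, the 4 glutathione synthesis genes tested were all higher in KO males by 0.20 to 0.43 on the log2 scale, with a median of 0.22. Of all genes 79.9% were higher, with a median of 0.16, so this lies near the general shift. Among the 4, *Gclm* had an unadjusted p under 0.05. *Gclm* was at 10.6, 12.1, 13.6 and 14.3 TPM in WT males and at 12.7, 18.3, 17 and 22 TPM in KO males, with an overlap by 1 KO mouse (log2 difference 0.43, SE 0.17, adjusted p 0.235 by limma). The soluble transferases were divided, with 7 higher and 6 lower. *Gstz1*, the enzyme of tyrosine breakdown that isomerizes maleylacetoacetate, was the gene lower in KO males, at 139, 164, 138 and 132 TPM in WT against 123, 114, 108 and 98.2 TPM in KO mice. All 4 KO males lay below all 4 WT males (log2 difference -0.37, SE 0.11, adjusted p 0.198), and the sign was kept in every alternative setting, between -0.54 and -0.30.

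Among superoxide and peroxide enzymes the differences of KO males were small. *Sod3*, the extracellular superoxide dismutase, was at 53.0, 65.7, 59.5 and 66.3 TPM in WT and at 77.9, 77.7, 70.7 and 72.8 TPM in KO males (log2 difference 0.29, SE 0.10, adjusted p 0.214). *Prdx3*, the mitochondrial peroxiredoxin, was at 205, 211, 251 and 250 TPM in WT and at 244, 308, 286 and 283 TPM in KO males (0.29, SE 0.11, adjusted p 0.236). *Gpx7*, a peroxidase of the endoplasmic reticulum, was at 3.32, 5.02, 2.72 and 3.74 TPM in WT and at 4.55, 5.84, 5.10 and 4.36 TPM in KO males (0.40, SE 0.17, adjusted p 0.258). The groups did not overlap for *Sod3*, and did so for *Prdx3* and *Gpx7*.

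Both thioredoxin reductases and KEAP1 had slightly higher transcript levels in KO males. The cytosolic *Txnrd1* was at 16.6, 18.6, 19.8 and 21.4 TPM in WT and at 20.2, 23.5, 22.8 and 23.8 TPM in KO males (log2 difference 0.24, SE 0.10, adjusted p 0.263). The mitochondrial *Txnrd2* was at 36.7, 51.2, 49.6 and 51.4 TPM against 49.1, 66.7, 59.8 and 61.8 TPM (0.33, SE 0.14, adjusted p 0.261). *Keap1* was at 10.1, 13.3, 11.8 and 12.8 TPM against 13.5, 15.9, 14 and 14.5 TPM (0.27, SE 0.11, adjusted p 0.245). Only for *Keap1* among these 3 did the groups of males not overlap, and all 3 differences include the general shift of 0.16.

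Markers of other cells moved with genotype in males. The 10 macrophage markers were all higher in KO males, 9 of them at an unadjusted p under 0.05, and their summed level was 46.0 to 90.1 TPM in WT and 118 to 174 TPM in KO mice. The 10 fibroblast markers were also all higher, 6 of them at an unadjusted p under 0.05, with sums of 125 to 214 and 263 to 273 TPM. *Mfap5*, the 1 gene past the adjusted threshold in males, is in this list. The 5 erythroid markers tested were all higher in KO males at an unadjusted p under 0.05, with sums of 1599 to 3302 TPM in WT and 3194 to 6474 TPM in KO mice. Of all genes 79.9% were higher, and 17.7% were higher at that p. The 8 endothelial, 8 skeletal muscle and 4 Schwann cell markers tested were also all higher, 3, 0 and 0 of them at that p. Of the brown adipocyte markers 4 of 10 were higher, of the adipocyte markers 3 of 8 and of the neutrophil markers 0 of 2. Lymphocyte markers summed to at most 6.15 TPM in any library. The part of these cells in the differences of the antioxidant genes was not tested, and in bulk tissue more cells of a type and more RNA per cell cannot be told apart.

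**Figure D2:**
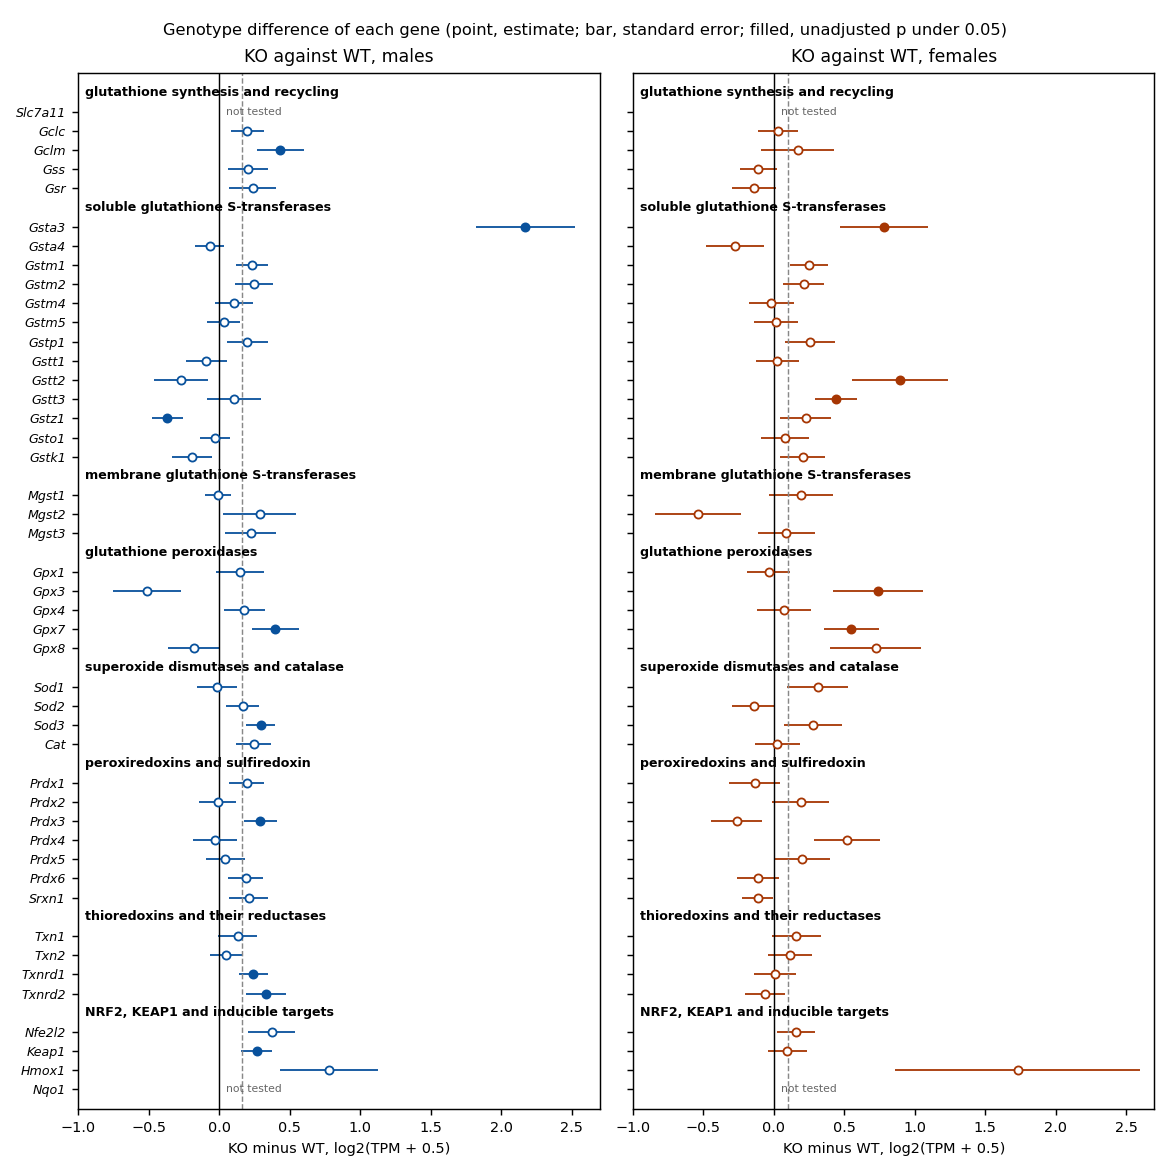
Log2 difference between KO and WT of each gene in males (left) and females (right), with bars for the standard error, filled points for an unadjusted p under 0.05 by limma and a dashed line at the median of all genes tested (0.16 and 0.10). *Gsta3* in males is at 2.17 while most genes lie near the dashed line, and *Gpx3*, *Gstt2* and *Gstz1* are on opposite sides of 0 in the sexes.

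Female KO mice had more transcript of *Gpx7*, *Gstt3*, *Gstt2*, *Gsta3* and *Gpx3* at an unadjusted p under 0.05, and none of the 43 genes passed the adjusted threshold by limma, as was true of all 12141 genes tested (0%). These 5 genes were 11.6% of the 43, equal to the 11.6% of all genes that were higher at that p in females, and 0 of the 43 were lower against 5.46% of all genes. After median-of-ratios scaling the split was 5 higher and 2 lower, beside 1300 higher and 1138 lower of all 12127 genes. The median difference of the 43 genes was 0.12 against 0.10 for all genes. The number at an unadjusted p under 0.05 was 2 without female KO 1 or female KO 4 and 3 without female WT 2, all of them higher. Without female WT 4 it was 1 higher and 2 lower, beside 1057 higher and 689 lower of all 12089 genes. By any size of difference 23 of the 43 were then higher, against 31 with all libraries.

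*Gpx7* was at 3.75, 3.13, 3.94 and 2.30 TPM in female WT and at 6.21, 4.45, 3.80 and 5.67 TPM in female KO mice (log2 difference 0.55, SE 0.19, adjusted p 0.243). *Gpx3* was at 1374, 645, 907 and 644 TPM in WT and at 1893, 1184, 926 and 1929 TPM in KO females (0.74, SE 0.32, adjusted p 0.288). The groups overlapped for both peroxidases, and 2 KO females had the highest *Gpx3* levels of the 16 libraries.

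Among the transferases, *Gsta3* was at 1.66, 3.61, 1.5 and 2.12 TPM in female WT and at 3.69, 3.87, 6.98 and 2.46 TPM in female KO mice, with means of 2.22 ± 0.962 and 4.25 ± 1.92 TPM (SD, n = 4). Its log2 difference in females was 0.78 (SE 0.31, adjusted p 0.266). *Gstt2*, a theta-class transferase, was at 35.5, 17.2, 28.7 and 19.0 TPM in WT and at 57.8, 49.3, 23.4 and 62.2 TPM in KO females (0.89, SE 0.34, adjusted p 0.255). For *Gsta3* and *Gstt2* 1 KO female fell within the WT range. With the library prefix as a covariate, the female differences were 0.36 for *Gstt2*, 0.40 for *Gpx3* and 1.24 for *Gsta3*. Within prefixes 8b (1 KO mouse and 3 WT mice) and 10 (1 mouse each), *Gstt2* differed by 0.14 and 0.69 and *Gpx3* by 0.36 and 0.46. *Gstt3*, next in the same family, was at 2.68, 2.27, 3.28 and 2.44 TPM against 4.43, 3.86, 3.15 and 3.71 TPM (0.44, SE 0.15, adjusted p 0.232).

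*Gstm1* was the gene for which the females did not overlap, with 122, 106, 115 and 121 TPM in WT and 162, 129, 131 and 129 TPM in KO mice. Of all genes tested in females, 4.9% were higher without overlap and 3.19% lower without overlap, against 1 and 0 of the 43. After median-of-ratios scaling *Gstm1* was not among the genes without overlap, which were then *Gstt3* and *Gpx7* (higher) and *Sod2* and *Srxn1* (lower). The share of all genes without overlap was not counted after that scaling. *Nqo1* and *Slc7a11* were below the TPM minimum and were compared by exact permutation tests in each sex. *Nqo1* was at 0.548, 0.640, 0.600 and 0.300 TPM in WT and at 0.817, 0.754, 0.968 and 0.704 TPM in KO females, a difference of 0.37 on the log2 scale. The female groups did not overlap for *Nqo1* in TPM, but did after median-of-ratios scaling. Without that scaling the exact two-sided permutation p of *Nqo1* was 0.0286, and 0.114 after Benjamini-Hochberg adjustment over these 4 tests. *Slc7a11* was at 0.0612, 0.00455, 0.0981 and 0 TPM in male WT and at 0.0658, 0.191, 0.195 and 0.208 TPM in male KO mice (two-sided exact permutation p 0.0571, adjusted 0.114). Neither gene exceeded 1.22 TPM in any library, where few reads can decide a value.

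*Hmox1*, the heme oxygenase that NRF2 induces, had the widest ratio of highest to lowest library of the 44 genes above 0 in every library. It was at 6.10, 3.58, 4.38 and 4.24 TPM in WT females and at 19.1, 5.09, 5.05 and 123 TPM in KO females, so that a single mouse set the female KO mean of 38.1 ± 57.1 TPM (SD, n = 4). In males it was at 3.76, 6.0, 4.22 and 9.10 TPM in WT and at 5.20, 9.99, 10.5 and 16 TPM in KO mice. The groups overlapped in males. Macrophages use the enzyme to recycle heme. Their 10 listed markers summed to 55.2 to 121 TPM in WT and 75.6 to 111 TPM in KO females, and the mouse with 123 TPM of *Hmox1* was at 99.8 TPM. The 8 endothelial markers were all higher in KO females at an unadjusted p under 0.05, with sums of 148 to 201 TPM in WT and 230 to 446 TPM in KO mice. The 8 skeletal muscle markers were also all higher in KO females, 0 of them at an unadjusted p under 0.05. Of all genes 62.7% were higher in KO females, and 11.6% were higher at that p. The part of these cells in the differences of the antioxidant genes was not tested.

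**Figure D3:**
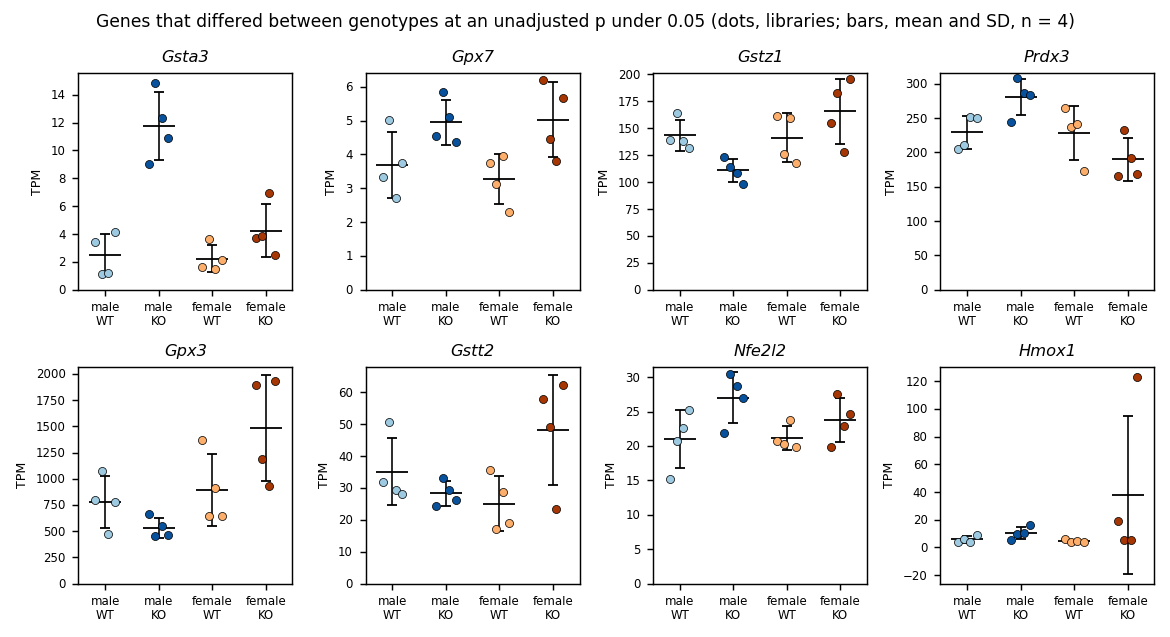
TPM of 8 genes in each library, grouped by sex and genotype, with horizontal bars at the mean and whiskers of 1 SD (n = 4). *Gsta3* in KO males (9.01 to 14.8 TPM) lies above all other libraries, *Gstz1* and *Gpx3* are lower in KO than WT males and higher in KO than WT females by their means, and 1 female KO mouse stands alone for *Hmox1* at 123 TPM.

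The genotype differences of males and females were compared directly, by the interaction over all 16 libraries. No member and no gene of 12210 passed the adjusted threshold by limma (0%). At an unadjusted p under 0.05, the difference was more positive in males for 2 of 43 genes (4.65%, against 11.7% of all genes) and more negative in males for 4 (9.30%, against 2.51%). After median-of-ratios scaling the counts were 4 and 7, beside 1136 and 1129 of all 12195 genes. Without male KO 1 the counts were 6 and 4, beside 1685 and 272 of all 12191 genes.

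The 4 genes with more negative differences in males were *Gpx3*, *Gstt2*, *Gstz1* and *Gpx8*. *Gpx3* was at 795, 1074, 472 and 777 TPM in WT males and at 660, 454, 547 and 461 TPM in KO males, and its log2 differences were -0.51 in males and 0.74 in females, which differed by -1.25 (SE 0.42, adjusted p 0.229). *Gstt2* was at 32.0, 50.7, 29.4 and 28.1 TPM in WT and 24.4, 33.0, 29.5 and 26.2 TPM in KO males, and the interaction was -1.17 (SE 0.42, adjusted p 0.248). *Gstz1* was at 161, 126, 160 and 118 TPM in WT and at 155, 183, 128 and 196 TPM in KO females, and the interaction was -0.59 (SE 0.21, adjusted p 0.245). The fitted directions of these 3 genes differed between the sexes, and no adjusted p passed. Within prefixes the opposite signs held for *Gpx3* alone of the 3, with -0.32 in males (prefix 9). *Gstz1* had negative differences in both sexes, -0.34 in males and -0.06 and -0.05 in females (prefixes 8b and 10), and *Gstt2* differed by 0.03 in males. With the prefix as a covariate the interactions were -0.93 for *Gpx3*, -0.48 for *Gstt2*, -0.31 for *Gstz1* and -0.37 for *Gpx8*. *Gpx8*, a second peroxidase of the endoplasmic reticulum, was at 20.02, 33.6, 20.2 and 19.2 TPM in WT and 22.2, 21.8, 17.1 and 19.0 TPM in KO males, and at 50.4, 21.6, 35.7 and 18.9 TPM in WT and 45.9, 53.7, 34.2 and 66.3 TPM in KO females (interaction -0.90, SE 0.40, adjusted p 0.325).

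*Gsta3* and *Prdx3* had more positive differences in males. For *Gsta3* the genotype difference was positive in both sexes and larger in males by 1.39 (SE 0.50, adjusted p 0.253). *Prdx3* was at 264, 237, 241 and 172 TPM in WT females and at 165, 233, 192 and 169 TPM in KO females, and the interaction was 0.56 (SE 0.21, adjusted p 0.270). Within prefixes 8b and 10, the female differences were 1.42 and 0.96 for *Gsta3* and -0.16 and -0.68 for *Prdx3*.

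In the mean effect over both sexes, which rests on the same libraries as the comparisons above, *Gsta3* rose in KO mice and was the only one of the 43 genes past the adjusted threshold. Its log2 difference was 1.48 (SE 0.25), or 2.78-fold, with an adjusted p of 0.0144 by limma, and 2.95% of all 12210 genes passed. It passed in 25 of 26 alternative settings, including each of the 16 that left out a mouse, and with the library prefix as a covariate its difference was 1.64 at an adjusted p of 0.0578. *Gpx7* came next with 0.47 (SE 0.13, adjusted p 0.0608). By any size of difference 75.5% of all genes were higher in this comparison. Of the markers of other cells, 9 of 9 macrophage, 10 of 10 fibroblast and 8 of 8 endothelial markers tested were also higher, and 3, 3 and 2 of them passed the adjusted threshold. Their part in the *Gsta3* difference was not tested. *Gpx7* passed without female KO 3, as *Sod3* did, and without male WT 2. The leading 2 coding transcripts of *Gsta3*, of 3 annotated, were higher in each male KO mouse than in any male WT mouse, with one at 3.21 to 5.99 against 0.125 to 2.06 TPM and the other at 4.83 to 6.85 against 0.483 to 1.97 TPM.

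Over both sexes, 8 of the 43 genes had higher KO levels with an unadjusted p under 0.05 (18.6%, against 21.4% of all genes) and 0 were lower (against 2.58%). In median-of-ratios scaling the split was 3 and 3, beside 1416 and 1114 of all 12195 genes. The median was 0.12 against 0.13 for all genes. Counting any size of difference, 39 of 43 genes were higher, against 75.5% of all genes, and 19 of 43 after that scaling. The count of 8 was 5 without male KO 2 and 4 without male WT 1.

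The remaining genes of the 8 were *Gstm1*, *Gstm2*, *Gstt3*, *Sod3*, *Nfe2l2* and *Hmox1*. *Gstm1* was at 119, 152, 117 and 150 TPM in WT and at 168, 152, 156 and 152 TPM in KO males, and *Gstm2*, its mu-class neighbour, at 32.8, 39.5, 34.7 and 47.3 against 40.1, 50.6, 47.3 and 44.6 TPM. In females *Gstm2* was at 42.6, 34.7, 36.8 and 28.3 TPM in WT and at 41.3, 39.5, 42.9 and 39.8 TPM in KO mice. The mean log2 differences were 0.24 for *Gstm1* and 0.23 for *Gstm2*, with adjusted p of 0.103 and 0.161 by limma. *Gstt3* was at 2.32, 3.85, 2.39 and 2.27 TPM in WT and at 2.12, 3.38, 3.28 and 2.91 TPM in KO males, and overlapped there. *Sod3* was at 46.2, 45.1, 52.9 and 66.2 TPM in WT and 78.2, 57.5, 46.9 and 75.2 TPM in KO females.

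*Nfe2l2*, which encodes NRF2 itself, was at 15.2, 20.8, 22.6 and 25.2 TPM in WT and at 21.9, 30.4, 28.8 and 27.0 TPM in KO males. In females it was at 20.7, 20.2, 23.7 and 19.9 TPM in WT and at 19.9, 27.6, 22.9 and 24.6 TPM in KO mice. The mean difference was 0.26 (SE 0.11, adjusted p 0.153) and the groups overlapped in both sexes. *Hmox1* had a mean difference of 1.25 (SE 0.51, adjusted p 0.156), which was 0.77 without female KO 4 and 0.59 with the prefix as a covariate. Of the 9 genes with the antioxidant response element core in any searched promoter window, only *Gsta3* passed the adjusted threshold in this comparison.

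In the comparison of males with females, averaged over both genotypes, 7 of the 43 genes passed the adjusted threshold (4.47% of all genes did). *Gstt1*, *Srxn1*, *Gss*, *Txnrd2* and *Prdx6* were higher in males and *Gpx3* and *Gpx8* were lower. At an unadjusted p under 0.05, 16 of the 43 were higher in males (37.2%, against 18.2% of all genes) and 3 were lower (6.98%, against 3.14%). After median-of-ratios scaling these counts became 14 and 4, beside 1475 and 994 of all 12195 genes. The median difference was 0.16 against 0.08 for all genes. All 5 erythroid markers tested were lower in males at an unadjusted p under 0.05 (median -0.73). All 8 skeletal muscle markers were higher (median 2.51), 0 of them at that p, and 4 of 8 adipocyte markers passed the adjusted threshold, with *Plin1* and *Lep* higher and *Cfd* and *Retn* lower in males. The part of these cells in the differences of the antioxidant genes was not tested. Library prefix and sex were in part confounded, and with the prefix as a covariate only *Gpx8* passed. At an unadjusted p under 0.05, 6 of the 43 were then higher and 6 lower in males, beside 790 and 727 of all 12210 genes. By any size of difference 23 of the 43 were then higher in males, against 37 without the prefix. *Gstt1*, *Gss* and *Srxn1* passed without any single mouse, whereas the count fell from 7 to these 3 without female KO 1, female KO 4, female WT 3, male KO 2, male KO 3, male KO 4, male WT 3 or male WT 4.

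*Gstt1*, a theta-class transferase, was at 26.0, 31.4, 23.5 and 27.7 TPM in WT males, at 31.7, 26.5, 21.2 and 22.7 TPM in KO males, at 20.1, 16.5, 20.5 and 13.7 TPM in WT females and at 18.9, 19.1, 16.2 and 17.2 TPM in KO females. Every male was above every female, and the log2 difference was 0.55 (SE 0.10, adjusted p 0.0115). *Gss*, glutathione synthetase, was at 19.0, 24.9, 26.9 and 29.3 TPM in WT males, 25.7, 32.1, 29.6 and 27.3 TPM in KO males, 20.4, 20.5, 21.7 and 17.6 TPM in WT females and 18.3, 22.4, 16.9 and 17 TPM in KO females (0.46, SE 0.10, adjusted p 0.0183). Sulfiredoxin (*Srxn1*), which repairs overoxidized peroxiredoxins, was at 14.7, 19.6, 21.7 and 20.7 TPM in WT males, 19.0, 23.7, 22.8 and 22.8 TPM in KO males, 16.5, 15.1, 16.7 and 14.9 TPM in WT females and 14.7, 15.9, 12.9 and 14.7 TPM in KO females (0.42, SE 0.08, adjusted p 0.0157). For *Gss* and *Srxn1* male WT 1 lay within the female range.

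*Prdx6*, the peroxiredoxin that acts on phospholipid peroxides, was at 174, 225, 220 and 251 TPM in WT males, 223, 258, 253 and 252 TPM in KO males, 218, 179, 195 and 163 TPM in WT females and 159, 206, 168 and 165 TPM in KO females (0.35, SE 0.09, adjusted p 0.0458). With protein-coding transcripts only, *Prdx6* did not pass (adjusted p 0.104). *Txnrd2* was at 47.4, 37.8, 40.9 and 39.0 TPM in WT and 43.3, 43.9, 37.9 and 33.2 TPM in KO females, and was higher in males by 0.38 (SE 0.10, adjusted p 0.0414). *Gpx3* was lower in males, with a log2 difference of -0.81 (SE 0.21, adjusted p 0.0447), as was *Gpx8* with -0.81 (SE 0.20, adjusted p 0.0332). Within a genotype, males and females shared a prefix only among KO mice. Within prefix 9, with 3 males and 1 female, the differences were 0.43 for *Gstt1*, 0.79 for *Gss*, 0.64 for *Srxn1*, 0.62 for *Prdx6*, 0.91 for *Txnrd2*, -1.99 for *Gpx3* and -1.76 for *Gpx8*. Within prefix 10, with 1 mouse of each sex, they were 0.73, 0.48, 0.36, 0.48, 0.18, -1.52 and -1.03 in the same order, so each of the 7 kept its sign. *Mgst2* and *Sod2* followed just outside the threshold or further from it, with differences of 0.77 (adjusted p 0.0530) and 0.27 (adjusted p 0.103).

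*Mgst2*, a membrane transferase of leukotriene synthesis, was at 5.26, 6.52, 7.82 and 12.3 TPM in WT males, 7.01, 13, 9.28 and 9.10 TPM in KO males, 5.43, 6.14, 3.65 and 9.23 TPM in WT females and 5.45, 3.18, 5.19 and 2.37 TPM in KO females. *Sod2* was at 337, 455, 417 and 447 TPM in WT males, 436, 507, 461 and 444 TPM in KO males, 452, 354, 392 and 334 TPM in WT females and 362, 386, 303 and 333 TPM in KO females. In both genes all KO males were above all KO females while the WT groups overlapped. In fits within a genotype, 0 of the 43 genes passed in WT libraries, where 8 of all 12042 genes did. In KO libraries 11 of the 43 passed, where 1139 of all 12270 genes did. In WT libraries 1 of the 43 was at an unadjusted p under 0.05, beside 262 genes higher and 151 lower of all tested. The difference between these 2 contrasts is the interaction given above. The *Gpx3* difference was -0.18 in WT and -1.43 in KO libraries, and that of *Gpx8* was -0.36 and -1.26.

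**Figure D4:**
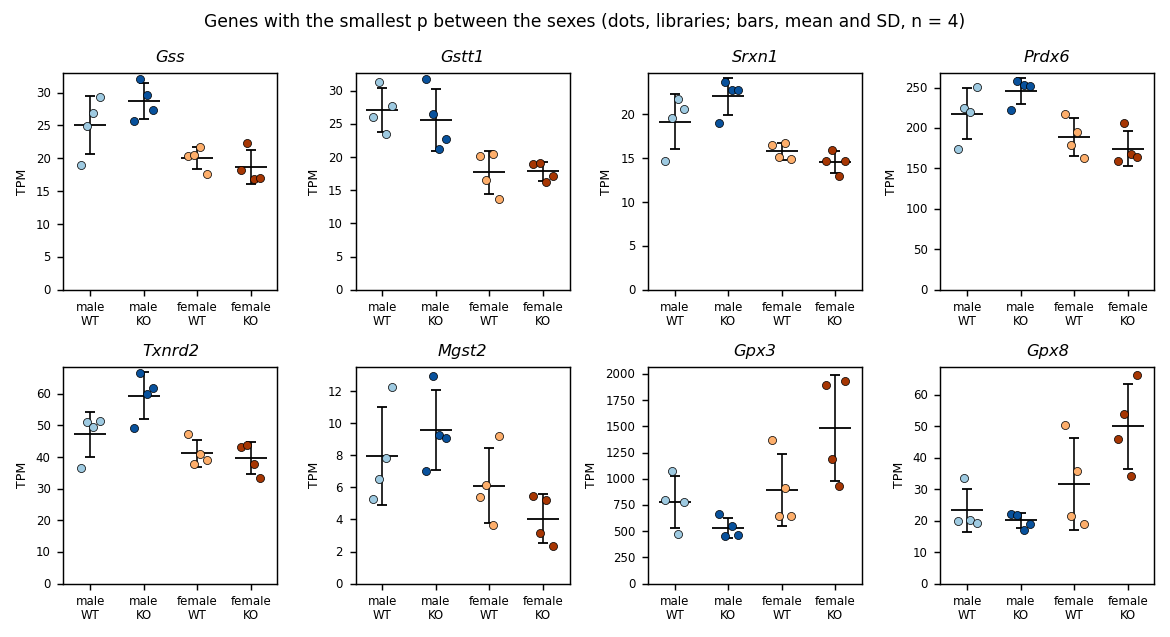
TPM of the 8 genes with the smallest p between the sexes, in each library by sex and genotype, with bars for the mean and whiskers of 1 SD (n = 4). *Gstt1* separates every male from every female, whereas *Gpx3* and *Gpx8* differ most between KO females (926 to 1929 and 34.2 to 66.3 TPM) and KO males (454 to 660 and 17.1 to 22.2 TPM).

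The enzymes that supply NADPH to the glutathione and thioredoxin systems were described as 1 of 4 further lists, which together held 78 genes. Of 11 NADPH genes, 10 were tested. All 10 were higher in KO than WT males, where 79.9% of all genes were, and 2 of them had an unadjusted p under 0.05, against 17.7% of all genes. In females 9 of the 10 were lower in KO mice and 5 of them had an unadjusted p under 0.05, against 5.46% of all genes. The interaction was positive for 10 of 10, 6 of them at an unadjusted p under 0.05 (11.7% of all genes), with a median of 0.72 against 0.06 for all genes, and none passed the adjusted threshold by limma.

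*Me1*, cytosolic malic enzyme, was at 59.1, 51.8, 115 and 124 TPM in WT males, 78.2, 297, 196 and 232 TPM in KO males, 126, 143, 77.2 and 124 TPM in WT females and 35.2, 60.6, 73.0 and 41.5 TPM in KO females. KO females were all below WT females, and the log2 differences were 1.15 in males and -1.18 in females, with an interaction of 2.32 (SE 0.55, adjusted p 0.215). *G6pdx*, which opens the pentose phosphate pathway, was at 73.6, 79.6, 69.5 and 69.6 TPM in WT and at 47.0, 60.1, 54.1 and 38.9 TPM in KO females, again without overlap (-0.56 in females, 0.41 in males, interaction 0.97, SE 0.23, adjusted p 0.215). *Pgd*, the next NADPH-forming step, was at 140, 162, 120 and 159 TPM in WT and at 50.3, 113, 103 and 49.9 TPM in KO females, without overlap (-0.97 in females, 0.70 in males, interaction 1.67, SE 0.47, adjusted p 0.215). Within prefixes, *Me1* differed by 0.998 in males (prefix 9) and by -0.60 and -1.82 in females (prefixes 8b and 10). *Tkt*, transketolase, and *Idh1*, cytosolic isocitrate dehydrogenase, had interactions of 1.66 and 0.71, with adjusted p of 0.224 and 0.235.

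Between the sexes 2 of the 10 passed (4.47% of all genes did), and *G6pdx* and *Idh2* were higher in males, by 0.45 and 0.48 on the log2 scale (adjusted p 0.0400 and 0.0297 by limma). *Nnt*, the mitochondrial transhydrogenase that also forms NADPH and carries a known deletion in C57BL/6J mice, averaged 0.868 TPM and ranged from 0.584 to 1.64 TPM, under the minimum for the test. Over the 4 further lists, 13 of the 67 genes tested in males were higher and 1 was lower at an unadjusted p under 0.05, and in females 7 were higher and 6 lower. These were 19.4 and 1.49% in males, against 17.7 and 1.07% of all genes, and 10.4 and 8.96% in females, against 11.6 and 5.46%. None of the 67 passed the adjusted threshold in either sex.

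In the mean over both sexes 2 of the 66 further genes tested rose in KO mice, *Ucp2* and *Selenow*, a share near the 2.95% of all genes that passed. *Ucp2*, a mitochondrial carrier abundant in macrophages, was at 10.6, 24.9, 16.6 and 19.6 TPM in WT males, 31.3, 50.6, 56.8 and 47.5 TPM in KO males, 21.1, 18.1, 21.2 and 28.3 TPM in WT females and 38.0, 25.2, 24.9 and 30.4 TPM in KO females. Its mean difference was 0.90 (adjusted p 0.0226 by limma), and it was 1.38 in males, where the groups did not overlap. How *Ucp2* relates to the macrophage markers or to those of other cells was not tested. The selenoprotein gene *Selenow* was at 126, 179, 127 and 183 TPM in WT males, 224, 214, 220 and 190 TPM in KO males, 129, 118, 123 and 93.3 TPM in WT females and 156, 126, 184 and 147 TPM in KO females (0.44, adjusted p 0.0487). Over 26 alternative settings *Ucp2* passed in 18 and *Selenow* in 9. *Ephx1*, microsomal epoxide hydrolase, had a mean difference of 0.53 (adjusted p 0.0724).

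Of the other genes singled out by the naming rule, *Cbs* of cysteine synthesis was at 0.364, 0.334, 0.935 and 0.237 TPM in WT and at 2.52, 0.976, 1.15 and 2.0 TPM in KO females, without overlap (1.15, adjusted p 0.231). The interactions of *Gstm7* and *Nfe2l1* were -0.90 and 0.61, with adjusted p of 0.218 each by limma. The ferritin chains *Fth1* and *Ftl1* averaged 1338 and 684 TPM and the thioredoxin inhibitor *Txnip* 469 TPM. *Txnip* means were 503 ± 94.0 and 511 ± 72.0 TPM in WT and KO males and 432 ± 49.8 and 431 ± 84.0 TPM in WT and KO females (SD, n = 4).

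**Figure D5:**
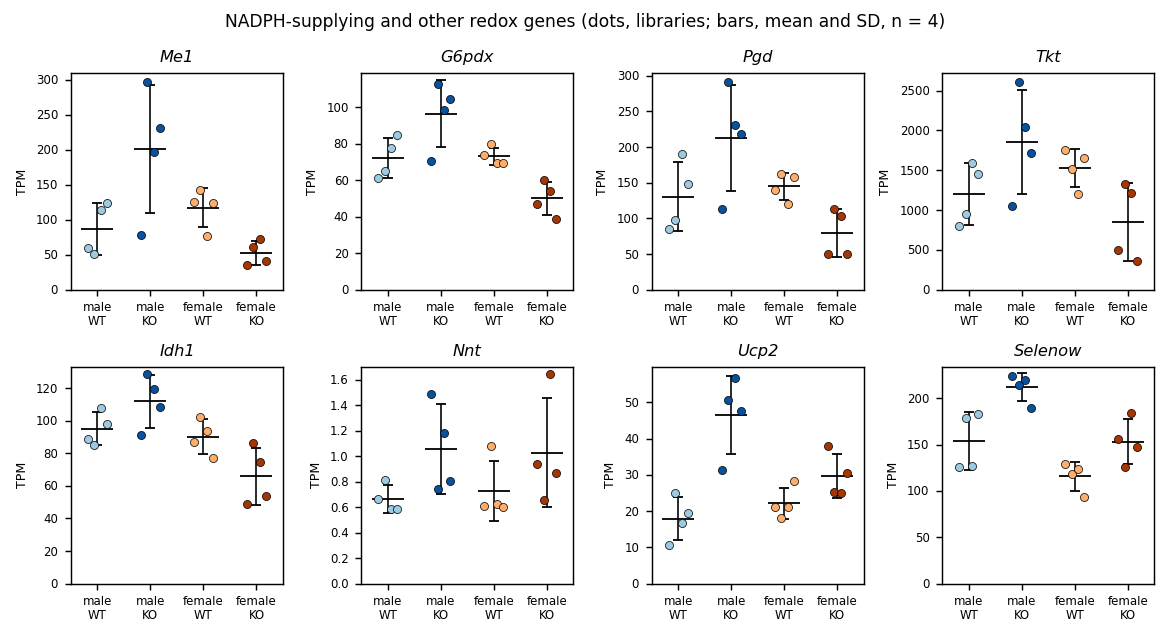
TPM of 8 further redox genes in each library, by sex and genotype, with bars for the mean and whiskers of 1 SD (n = 4). *Me1*, *G6pdx* and *Pgd* are lower in every KO female than in every WT female, and *Ucp2* in KO males (31.3 to 56.8 TPM) lies above all WT males.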

How the data were processed

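The authors prepared stranded polyA libraries from BAT, sequenced them single-end and quantified transcripts with kallisto 0.46.2. The labels name GRCm39, and the annotation release is not given in the sources used here. The deposited values are transcript TPM, scaled to 1000000 per library. The authors used DESeq2, which needs counts, so limma 3.58.1 (R 4.3.3) was used instead. Of 137438 transcripts, 135051 matched GENCODE M21 and were summed per symbol, and 2387 were left out. Genes with a mean of at least 1 TPM over the libraries compared were fitted as log2(TPM + 0.5) with lmFit and eBayes with a trend, and p-values were adjusted by Benjamini-Hochberg (threshold 0.05). KO was compared with WT over the 8 libraries of each sex, and the other comparisons were fitted over all 16. Single values were compared by exact permutation. The labels number the replicates and do not say that they are separate mice, so p-values measure the spread between these libraries. Library values are given for members with an unadjusted p under 0.05, up to 10 per comparison, and for the 3 highest and 3 lowest. Other pathway genes are named at an unadjusted p under 0.01, up to 5 per comparison between genotypes, with *Nnt*, *Txnip*, *Fth1* and *Ftl1*. *Mfap5*, the 4 adipocyte markers, *Idh1*, *Idh2*, *Tkt*, *Dio2* and *Ppargc1a* were picked with their values known. The members and lists were chosen with earlier results of these data known. Alternatives were other pseudocounts and TPM minimums, median-of-ratios scaling, removal of mitochondrial-genome transcripts, protein-coding transcripts only, no trend, the replicate number or library prefix as a term, 1 fit of all libraries, a single genotype for the sex difference, and leaving out each library. The fits were tested on simulated data. Protein sequences were not analysed here.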

Additional observations from a re-analysis of the deposited data

Results flagged for a closer look

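Of 180 groups of 4 libraries (45 genes in 4 groups), 9 had 1 library far from the other 3 by Dixon's criterion, which is also the number that chance gives at 1 in 20. Male WT 2 was high for *Gstt2* (50.7 TPM, next 32.0), *Gstt3* (3.85 TPM, next 2.39) and *Gpx8* (33.6 TPM, next 20.2), and male WT 1 was low for *Txnrd2* (36.7 TPM, next 49.6). Male KO 1 was low for *Slc7a11* (0.0658 TPM, next 0.191) and *Prdx6* (223 TPM, next 252). Female WT 4 was high for *Slc7a11* at 0.303 TPM (next 0.0678), and female KO 1 for *Gstm1* at 162 TPM (next 131). *Hmox1* in female KO 4 was at 123 TPM, with the next library of its group at 19.1 TPM and the lowest at 5.05 TPM. In female KO 4 the ferritin chain *Ftl1* was at 1179 TPM and the thermogenic markers *Dio2* and *Ppargc1a* were at 52.6 and 34.6 TPM, the highest of all libraries. These 2 markers were picked with their values known. The 10 listed brown adipocyte markers summed to 11662 TPM in female KO 4, below 12216 TPM in female KO 1 and 12778 TPM in male WT 2. Whether *Hmox1* moves with any of these genes was not tested. No member's genotype effect differed between the sexes at the adjusted threshold.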

How the results depend on the processing

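Of 1506 values recomputed for 62 gene results, 1386 kept their direction and their side of the threshold, and the cause of the other changes was not tested. Most of these results did not pass in the main fit, where keeping the side only meant staying outside the threshold. Between the sexes, *Srxn1* and *Gss* passed in 26 of 28 alternatives and *Gstt1* in 25. *Gpx8* passed in 16 of them, *Gpx3* in 14, *Txnrd2* in 11 and *Prdx6* in 10. For genes at an adjusted p under 0.05 in males (1 of all genes, 0 members), the number over all genes was 2 with a pseudocount of 0.1, 0 with no TPM minimum, 3 with median-of-ratios scaling, 12 without mitochondrial-genome transcripts, 20 with protein-coding transcripts only, 6 with the prefix and 38 in 1 fit of 16 libraries, and 1 member passed with coding transcripts only and in the 16-library fit. Members at an unadjusted p under 0.05 in males (9) were 4 with the prefix and 5 in the 16-library fit. In females (5) they were 3 at a minimum of 5 TPM, 2 without mitochondrial-genome transcripts, 2 with the prefix and 8 in the 16-library fit, and all genes past the adjusted threshold (0) were 8 with the prefix and 5 in that fit. For the interaction, 11 members were at an unadjusted p under 0.05 with median-of-ratios scaling (6 before), and 1 gene passed without the trend. For the mean effect, 360 genes passed, and 54 with no minimum, 177 at 5 TPM, 720 with coding transcripts and 12 with the prefix. There, 2 members passed with coding transcripts and 0 with the prefix (1 before), and members at an unadjusted p under 0.05 (8) were 4 without mitochondrial-genome transcripts and 3 with the prefix. Between the sexes (7 members and 546 genes), 3 members and 262 genes passed with no minimum, 4 and 303 without mitochondrial-genome transcripts, 1 and 93 with the prefix, 0 and 8 in WT libraries only, and 11 and 1139 in KO libraries only. Members at an unadjusted p under 0.05 (19) were 12 with the prefix and 1 in WT libraries, where the *Gstz1* difference turned from -0.27 to 0.0311.

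The replicate numbers did not pair the samples. With the number as a replicate block, the count over all genes was 0 in males, 1 in females and 60 for the mean effect, and 4 members passed between the sexes.

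Leaving out 1 library gave 0 to 5 genes past the adjusted threshold in males, 0 to 9 in females, 0 to 3 for the interaction, 31 to 1055 for the mean effect and 194 to 1021 between the sexes. Members past it were 1 to 3 for the mean effect and 3 to 9 between the sexes. Members at an unadjusted p under 0.05 were 3 to 14 in males, 2 to 7 in females, 5 to 10 for the interaction and 4 to 11 for the mean effect. TPM hold no depth, so the precision of low genes such as *Slc7a11* and *Nqo1* cannot be derived from them.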
